A study of Mus musculus with 4 samples.

Results

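The first 2 Mb of mappable sequence next to the centromeres of the mouse autosomes were examined by whole-genome bisulfite sequencing of embryonic stem cells with and without induced loss of Ogt. The region was defined as the stretch from the end of the 3 Mb assembly gap to 5 Mb of each of the 19 autosomes in the mm10 build, and was divided into windows of 10 kb. A window was included when at least 10 of its CpGs had 1 read or more in all 4 libraries. Of 3800 possible windows 3701 were included and 99 fell short of the rule, against 238627 windows of all autosomes, or 252642 with X, that met it. The 3701 windows held 236080 CpGs, with 170 windows on chromosome 14 and up to 200 on the other chromosomes. No methylation value entered the rule.

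All cells were mouse embryonic stem cells of genotype Ogt fl/fl. The Ogt iKO group (2 libraries) had been cultured for 6 days with 4-hydroxytamoxifen (4-OHT), the drug used to induce deletion of the floxed gene, and was sorted for YFP. The control group (2 libraries) had been cultured for 6 days without 4-OHT, so drug exposure, YFP selection and knockout cannot be told apart. Both groups were grown on mitomycin C-treated embryonic fibroblasts in LIF and serum replacement, and viable stem cells were separated from the feeders by flow cytometry. No expression was measured, so cell identity was not checked against marker genes. No label names the recombinase or says whether the libraries of a group came from separate cultures, so p-values measure only the spread between these libraries, which may be technical.

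Mouse autosomes are telocentric: the centromere lies at one end of the chromosome, where minor satellite repeats are followed by arrays of major satellite. These arrays form constitutive heterochromatin, marked by methylated histone H3 lysine 9, methylated histone H4 lysine 20 and DNA methylation, and the assembly leaves them out as a gap. Ogt encodes O-GlcNAc transferase, the enzyme that adds N-acetylglucosamine to serine and threonine of nuclear and cytosolic proteins, and which binds the TET enzymes that oxidise 5-methylcytosine. Bisulfite sequencing does not separate 5-methylcytosine from 5-hydroxymethylcytosine, so a methylation level here is the share of reads that carry either mark. The satellite arrays within the gap were not analysed here.

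Between 64273609 and 79929994 reads over CpGs were tabulated per library, of which 930805 to 1127483 lay in the centromere-proximal windows. The median autosomal window had 4.29 and 3.84 reads per CpG in iKO replicates 1 and 2, against 3.69 and 3.48 in control replicates 1 and 2, so the iKO libraries were the deeper ones and single CpGs were measured coarsely. Of 301176 CpGs listed in the region, 78.5% had a read in all 4 libraries, against 80.6% over all autosomes. Read depth along Ogt, relative to the rest of X, was 1.25 and 1.21 in the iKO libraries, against 1.28 and 1.19 in the controls (two-sided exact permutation p = 1), so depth over the whole gene did not show the deletion. A mean over the 441 listed CpGs of the gene at this depth cannot resolve loss of a short segment. The knockout status therefore rests on the labels.

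To show what sequence the levels stand on, the 250 bases before the start of 4 genes of the region are printed with every CpG in capitals, from RefSeq (GRCm38.p6, the assembly that mm10 names). They were chosen after their values were seen, as a CpG-rich unmethylated start, a start with a large difference, and a pair of partly methylated starts. The motif is the dinucleotide CG, which reads the same on both strands. It was present in 92.1% of the 32851 promoters in the table, at a median of 6.00 per 250 bases, and in 97.1% of 314 promoters of the region, at a median of 11.5. The 314 belong to protein-coding genes, each the start of its gene with the most listed CpGs, a choice not made for the 32851. The sets are therefore not alike, and the higher median is not a trait of the region. Over the tested gene starts described below, the median was 31 CpGs in the region and 33 on the rest of the autosomes. Of 5156 CpGs in the sequences of those 314 promoters, 99.15% were listed in the deposited tables at the same position.
Morc2a, chr11:3649187-3649436, plus strand: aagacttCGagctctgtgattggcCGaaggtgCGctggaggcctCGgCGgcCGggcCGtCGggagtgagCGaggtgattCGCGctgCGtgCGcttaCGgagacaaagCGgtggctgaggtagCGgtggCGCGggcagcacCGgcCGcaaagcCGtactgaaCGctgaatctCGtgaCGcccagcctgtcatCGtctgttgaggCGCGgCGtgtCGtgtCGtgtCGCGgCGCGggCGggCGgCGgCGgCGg
H60c, chr10:3267772-3268021, minus strand: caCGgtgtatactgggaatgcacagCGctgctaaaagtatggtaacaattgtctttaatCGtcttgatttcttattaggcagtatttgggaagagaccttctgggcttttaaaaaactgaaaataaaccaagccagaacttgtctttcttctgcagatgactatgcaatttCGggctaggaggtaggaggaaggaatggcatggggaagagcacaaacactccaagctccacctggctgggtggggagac
Esr1, chr10:4709908-4710157, plus strand: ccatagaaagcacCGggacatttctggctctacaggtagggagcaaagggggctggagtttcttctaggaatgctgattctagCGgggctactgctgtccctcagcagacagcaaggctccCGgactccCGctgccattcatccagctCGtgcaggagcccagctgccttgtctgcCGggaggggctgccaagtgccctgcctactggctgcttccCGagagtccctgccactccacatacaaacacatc
Lif, chr11:4257318-4257567, plus strand: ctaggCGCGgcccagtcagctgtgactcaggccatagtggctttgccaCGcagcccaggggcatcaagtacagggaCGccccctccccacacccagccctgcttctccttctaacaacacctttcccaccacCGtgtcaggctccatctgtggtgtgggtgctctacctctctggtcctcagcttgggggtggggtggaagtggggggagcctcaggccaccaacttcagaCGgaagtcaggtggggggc
Morc2a encodes an ATPase of heterochromatin silencing. Its 39 CpGs were all covered, by 54 to 126 reads per library, and their pooled levels were 0.794% and 0% in iKO replicates 1 and 2 and 0% in both controls. H60c encodes a ligand of the NKG2D receptor of natural killer cells. Its 4 CpGs stood at 21.7% and 15.4% in the iKO libraries and at 80% and 76.9% in the controls, on 10 to 23 reads. Esr1 encodes the oestrogen receptor alpha. Its 7 CpGs stood at 4.00% and 9.52% in the iKO libraries and at 22.2% and 21.4% in the controls, on 14 to 27 reads. Lif encodes leukaemia inhibitory factor, the cytokine that keeps mouse embryonic stem cells undifferentiated. Its 6 CpGs stood at 63.6% and 48.1% in the iKO libraries and at 31.8% and 45.5% in the controls, on 22 to 27 reads. The groups did not overlap for H60c and Esr1, which were lower in iKO cells, nor for Lif, which was higher there. With so few reads these values are descriptions of the printed bases, and the tests below are over whole gene starts.

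The question for the region as a whole was whether methylation next to the centromeres fell in iKO cells, and whether it fell as much as elsewhere. The pooled level, all methylated reads over all reads, was 65.2% in the first iKO library and 63.2% in the second, against 69.99% and 73.5% in control replicates 1 and 2. The groups did not overlap, with iKO cells lower. The iKO mean was 64.2% ± 1.43 (SD, n = 2) and the control mean 71.7% ± 2.45 (SD, n = 2). They differ by -7.49 percentage points (points below), which is larger than the pooled SD of 2.00 points. The two-sided exact permutation test over libraries gave p = 0.333, the smallest value that 2 against 2 libraries allow, as it did for every comparison below where the groups did not overlap.

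The rest of the autosomes stood at 66.4%, 64.0%, 71.2% and 74.8% in the same order of libraries, and differed between groups by -7.78 points. Within each library the centromere-proximal windows were therefore slightly less methylated than the rest, by 1.12 and 0.788 points in the iKO libraries and by 1.18 and 1.31 points in the controls. This gap was 0.292 points narrower in iKO cells, with a pooled SD of 0.177, and the groups did not overlap (exact permutation p = 0.333). Without deep windows (mean depth over 3 times the library median in any library) it was 0.206 points against a pooled SD of 0.156. It was 0.128 without iKO replicate 2, 0.456 without iKO replicate 1 and 0.126 as an unweighted mean over windows (exact permutation p = 0.667, 0.333 and 0.667). The direction turned to -1.41 points against a pooled SD of 0.865 when 5 reads per CpG were required in every library. That setting left 73 centromere-proximal windows, of which 26 were deep ones that held 91.9% to 92.2% of the reads. Over autosomes and X it left 1880 windows in place of 252642, so the rest was cut down as well.

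The other end of the same chromosomes served as a second comparison. The last 2 Mb of the autosomes, 3758 windows, stood at 63.4%, 61.0%, 68.0% and 71.6%, a difference of -7.58 points. Centromere-proximal windows were more methylated than these telomere-proximal ones by 1.89 and 2.19 points in the iKO libraries and by 2.04 and 1.85 points in the controls. The group difference of 0.0930 points lay within the pooled SD of 0.176 and the groups overlapped (exact permutation p = 0.667). With single libraries left out it ranged from -0.0569 (without iKO replicate 2) to 0.243 (without iKO replicate 1). At 5 reads per CpG it was -5.48 points against a pooled SD of 2.68.

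By chromosome, the groups did not overlap on any of the 19 autosomes, with iKO cells lower on each. Over all autosomal bins of 2 Mb, 99.9% showed the same order, so this count says nothing particular about the region. The level itself varied widely among chromosomes. It was lowest on chromosome 7, at 52.8%, 50.8%, 58.0% and 60.5% in iKO replicates 1 and 2 and control replicates 1 and 2. Chromosome 3 had the highest level, at 73.8%, 72.2%, 77.4% and 82.1%. The 3 autosomes with the lowest control means, chromosomes 7, 19 and 11 at 59.2%, 63.9% and 66.4%, also had the most CpGs per window, on average 81.0, 92.8 and 93.8. Chromosome 3 had 40.3. Protein-coding genes overlapped 63.9%, 78.9% and 76.9% of the windows on chromosomes 7, 11 and 19, and 8% of those on chromosome 3. The order of levels did not follow gene content or CpG number throughout, and what set it was not tested. Chromosomes 2, 10 and 12 had genes in 71.3%, 66.8% and 71.5% of windows, more than chromosome 7, at control means of 74.5%, 72.1% and 70.001%. Chromosome 14 had the fewest CpGs per window, 23.3, at a control mean of 75.1%, and chromosome 2 had 78.2 at 74.5%.

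The differences ranged from -8.22 to -6.67 points among chromosomes, with pooled SDs of 1.59 to 2.71. The 3 largest were on chromosome 19 (-8.22 points, 55.6% against 63.9%), chromosome 12 (-7.90 points, 62.1% against 70.001%) and chromosome 6 (-7.89 points, 64.6% against 72.5%). The 3 smallest were on chromosome 14 (-6.67 points, 68.4% against 75.1%), chromosome 3 (-6.76 points, 73.0% against 79.8%) and chromosome 9 (-6.84 points, 70.9% against 77.8%). Without deep windows both ends of this order changed: the largest drops were on chromosomes 10 (-8.44 points), 19 (-8.22) and 9 (-8.03), and the smallest on chromosomes 14, 3 and 4 (-6.97). Against the remainder of the same chromosome, where differences ranged from -8.03 to -7.55 points, the centromere-proximal drop was smaller on 15 chromosomes and larger on 4, namely 6, 12, 18 and 19. The difference in members minus remainder ranged from -0.381 to 1.17 points, with pooled SDs of 0.128 to 0.795. The members minus remainder values of the groups did not overlap on 7 of the 15 (2, 3, 4, 9, 11, 14 and 16) and overlapped on the other 12 chromosomes. The count of 15 rested on iKO replicate 2, since it was 9 without that library, and it was 13 without deep windows. Other stretches of 2 Mb were not set against the remainder of their chromosome. The counts of 15, 4 and 7 therefore have no background and are descriptions.

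**Figure D1:**
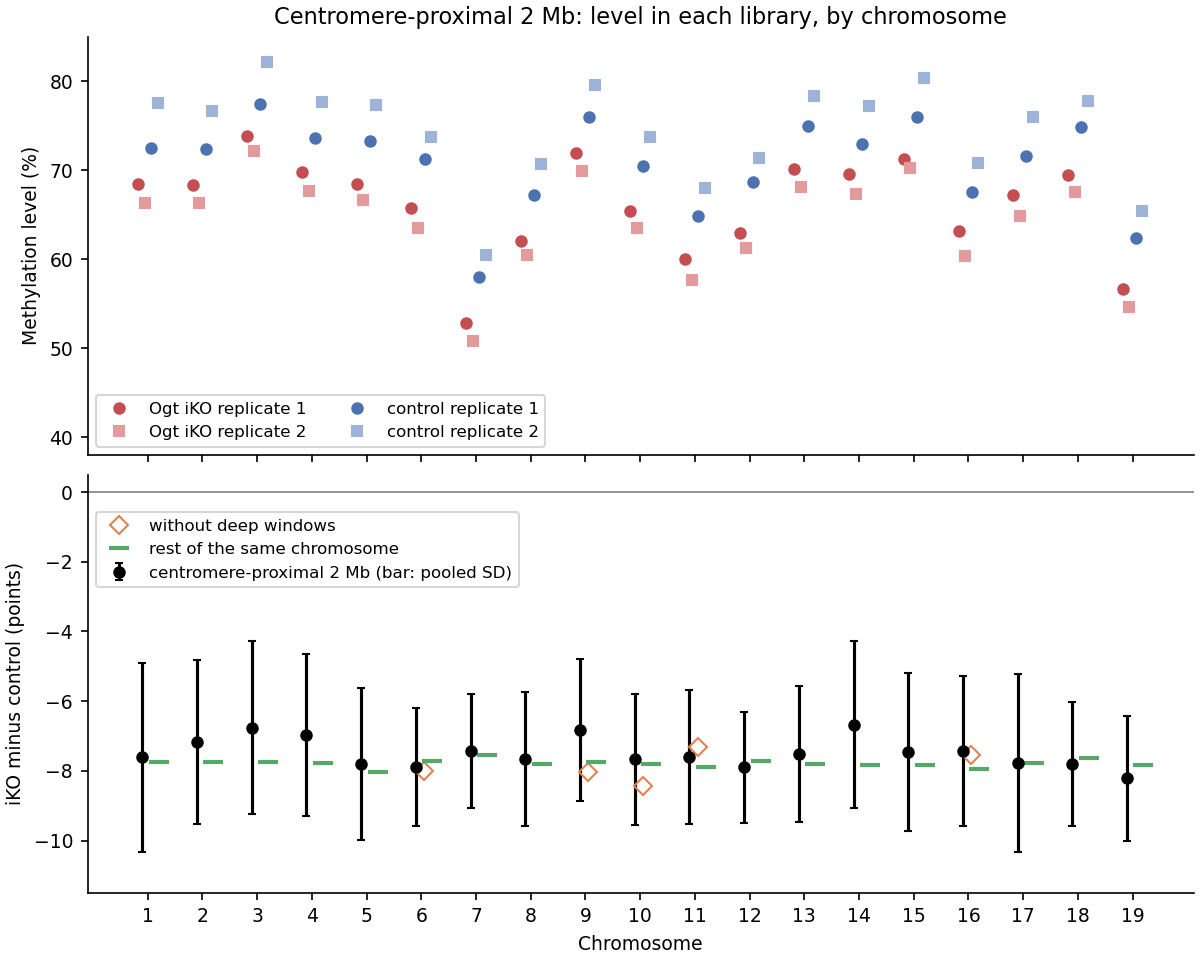
Upper plot: methylation level (%) of the centromere-proximal windows of each autosome, 1 point per library. Lower plot: mean of the 2 iKO libraries minus mean of the 2 controls in points, bars showing the pooled SD, with the value without deep windows (5 chromosomes) and that of the remainder of the chromosome; all differences lie between -8.44 and -6.67 points, below 0.

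Chromosome 14 stood apart in coverage. Only 36.6% of its 11284 listed CpGs had a read in all libraries, against 75.8% to 83.0% on the other autosomes, and its windows held 23.3 CpGs on average at 0.736 times the median depth. Its values rest on 10399 to 12325 reads per library. The groups did not overlap, with iKO lower, in 39.4% of its windows, against 59% to 80% on the others, and 4 of its windows had both iKO libraries above both controls, the most of any autosome. What part this low coverage had in the smaller drop on chromosome 14 was not tested.

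Distance from the gap was examined in 10 bins of 200 kb, counted from the end of the gap. The first 200 kb, 325 windows, were the most methylated, at 68.7%, 67.0%, 73.0% and 76.4% in iKO replicates 1 and 2 and control replicates 1 and 2. The next 1.8 Mb stood at 64.6%, 62.5%, 69.4% and 72.9%. In the 10 bins the difference between groups ranged from -8.14 points at 400 to 600 kb (62.6% against 70.7%) to -6.85 points at 0 to 200 kb (67.8% against 74.7%), with pooled SDs of 1.65 to 2.26. Both iKO libraries lay below both controls in all 10 bins, each pooled over chromosomes. Of single autosomal bins of 200 kb, 99.6% showed the same order, so this count says nothing particular about distance. From the bin at 600 kb onward the values lay between -7.96 and -7.27 points.

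Within each library the first 200 kb exceeded the next 1.8 Mb by 4.09 and 4.44 points in the iKO libraries and by 3.53 and 3.54 points in the controls. The groups did not overlap, and the difference of 0.733 points was larger than the pooled SD of 0.173 (exact permutation p = 0.333). Without deep windows, 14 of which lie in the first 200 kb, the excess was 5.65 and 5.69 points in the iKO libraries and 4.73 and 5.66 points in the controls. The groups then overlapped and the difference was 0.478 points with a pooled SD of 0.468 (exact permutation p = 0.667). At 5 reads per CpG it was -0.730 points against a pooled SD of 1.49. The first listed CpG lies within the first 1000 bases on 13 autosomes, but at 3050050 to 3050516 on chromosomes 2, 4, 6 and 15 and at 3100022 and 3100031 on chromosomes 10 and 11. Counting the distance from the first included window of each chromosome, an alternative chosen after seeing the data, gave 0.742 points.

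**Figure D2:**
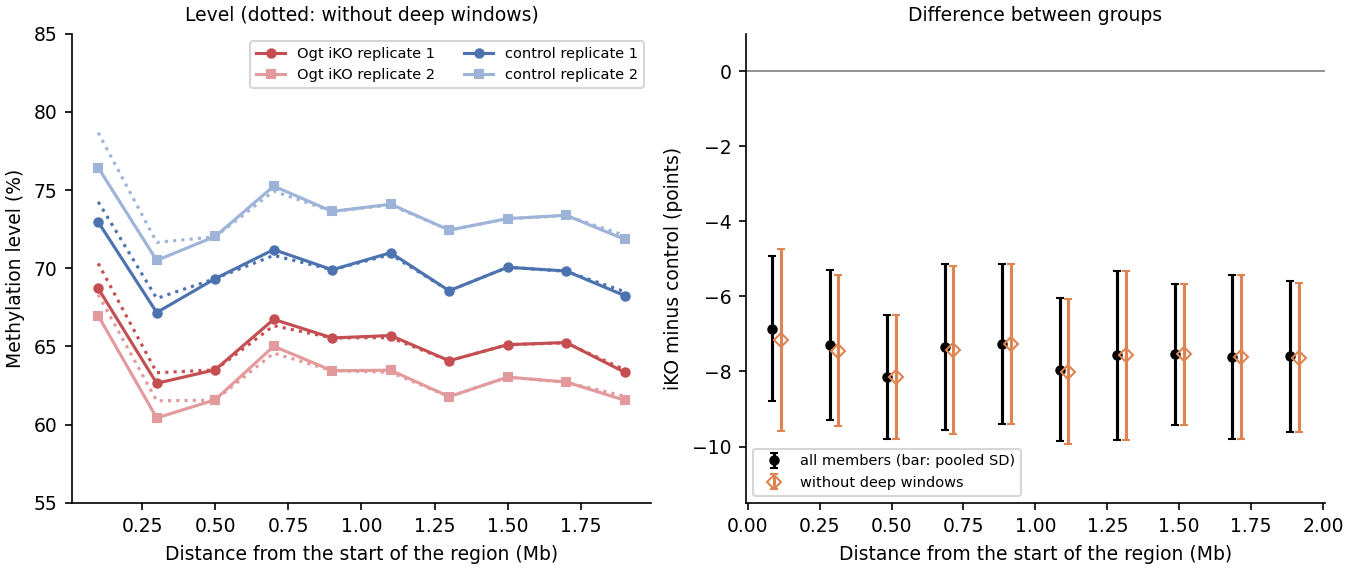
Left: methylation level (%) against distance from the start of the region (Mb) for each library in 10 bins of 200 kb, dotted lines without deep windows. Right: iKO minus control in points for all windows and without deep windows, bars showing the pooled SD; the values lie between -8.15 and -6.85 points, with the smallest drop in the first bin.

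Divided by chromosome and distance together, the region gave 190 cells of 200 kb. In all 190 both iKO libraries lay below both controls, against 99.6% of 12022 autosomal bins of that size. The largest drop was on chromosome 8 at 400 to 600 kb, where levels were 48.4% and 45.0% in the iKO libraries, against 57.8% and 58.2% in the controls, a difference of -11.3 points. Part of the RhoA exchange factor gene Arhgef18 lies in that cell. It was followed by chromosome 12 at 400 to 600 kb (-10.6 points) and chromosome 10 at 1400 to 1600 kb (-10.5 points). The smallest drop was on chromosome 10 at 0 to 200 kb, which stood at 72.1% and 72.3% in the iKO libraries and at 74.3% and 76.8% in the controls, a difference of -3.31 points over 10 windows. The deep window at 3110001 to 3120000 weighed heavily there. It held 2439 to 4131 reads per library and differed by -2.50 points, while the whole cell had as few as 3905 reads. Next came 2 cells of chromosome 14, at 600 to 800 and 400 to 600 kb (-4.28 and -4.30 points), on as few as 237 and 273 reads per library.

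**Figure D3:**
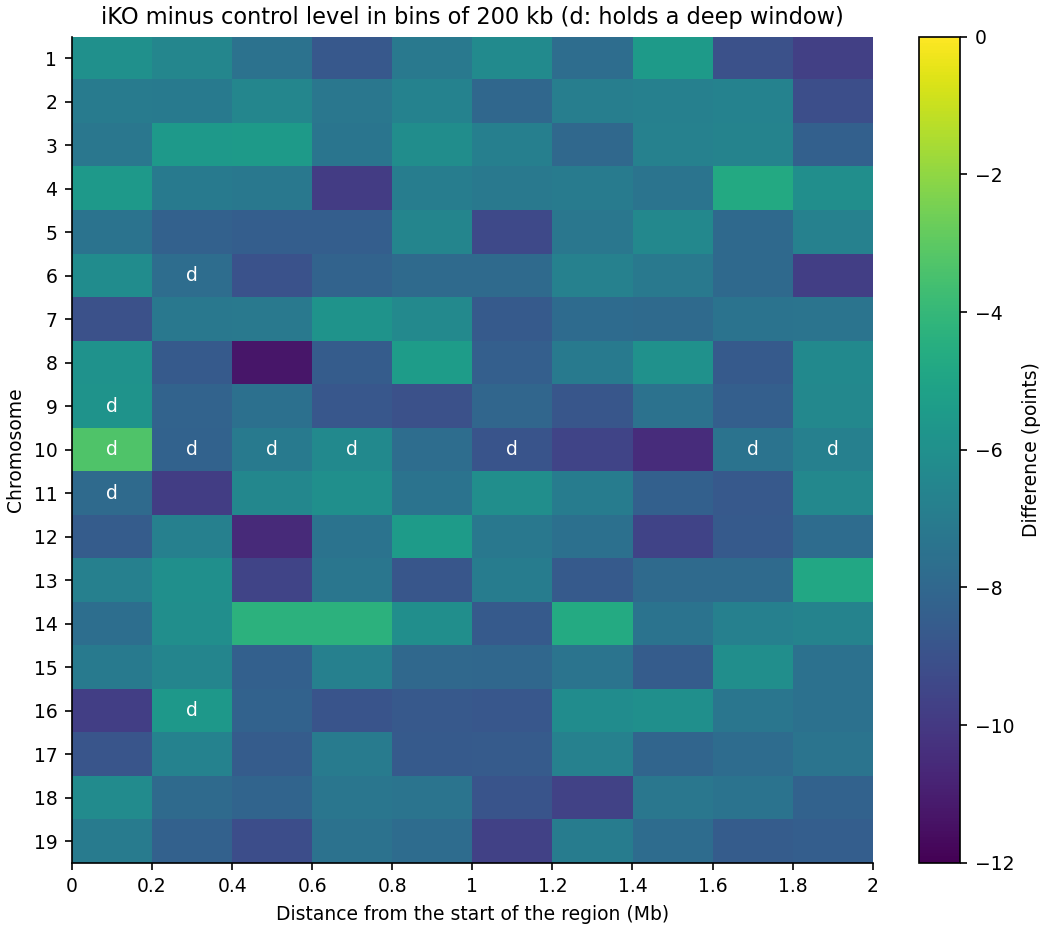
Difference between the group means in points (colour scale from -12 to 0) for each autosome (rows) and bin of 200 kb (columns, distance from the start of the region in Mb). The letter d marks bins with a deep window; all 190 values are below 0, from -11.3 on chromosome 8 to -3.31 on chromosome 10.

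Single windows were compared by a quasi-binomial logistic regression over all 252642 windows, with dispersions moderated by limma and Benjamini-Hochberg adjustment, and called at an adjusted p under 0.05 and at least 10 points. In the region 660 windows were called lower in iKO cells (17.8%) and 0 higher. Over all windows 17.3% were called lower and 0.000792% higher, so the share in the region was near the background. Both iKO libraries lay below both controls in 2607 windows (70.4%, background 71.6%) and above both in 17 (0.459%, background 0.522%). The median difference was -7.61 points in the region and -7.79 over all windows, with 96.4% of windows below 0 in both sets. At an unadjusted p under 0.05 stood 1491 windows of the region (40.3%), near the 40.1% of all windows. The count of calls depended on single libraries, at 47 when iKO replicate 2 was left out, 141 for control replicate 2, 312 for iKO replicate 1 and 1072 for control replicate 1. These are 1.27%, 3.81%, 8.43% and 28.97% of the region, beside 1.43%, 3.95%, 9.05% and 29.13% of all windows. edgeR's quasi-likelihood test called 520 windows, 14.05% of the region beside 14.14% of all windows. With logit levels and limma the count was 0, although 1182 windows of the region, and 84528 of all 252642, had an unadjusted p under 0.05.

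Called windows were spread over the region. Their share per chromosome ran from 3.53% on chromosome 14 and 5.00% on chromosome 3 to 28.5% on chromosome 12 and 29.2% on chromosome 19, and per distance bin from 12% at 0 to 200 kb to 25.2% at 400 to 600 kb. Over all windows 17.3% were called lower. Chromosomes 14, 3, 12 and 19 held on average 23.3, 40.3, 79.9 and 92.8 CpGs per window, while chromosome 11, with 93.8, had 21.6% called. What part CpG number had in these shares was not tested. Shares for the remainder of each chromosome were not counted. Of the 660 windows, 376 had no called neighbour, and 284 lay in runs of adjacent called windows. Runs were not counted outside the region, so these counts have no background. The longest run had 6 windows on chromosome 10 at 4390001 to 4450000, across Armt1 and Rmnd1, a gene of mitochondrial translation. Its levels were 52.8% in both iKO libraries and 67.6% and 66.1% in the controls, a difference of -14.02 points over 541 CpGs. Runs of 5 windows lay in Lyn, a Src-family kinase gene, with its neighbours 2210414B05Rik and Gm42250 (chromosome 4 at 3640001 to 3690000, -14.1 points), in Ppp1r9a, which encodes the actin-binding protein neurabin (chromosome 6 at 4950001 to 5000000, -12.1 points), in Arhgef18 (chromosome 8 at 3390001 to 3440000, -17.7 points) and over 2810429I04Rik (chromosome 13 at 3450001 to 3500000, -13.7 points). The Arhgef18 run stood at 40.9% and 37.7% in the iKO libraries and at 56.7% and 57.3% in the controls. Since calling chose these windows, the values of runs are descriptions.

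The 5 windows with the largest decreases among those called, with at least 30 CpGs and groups that did not overlap, lay on chromosomes 3, 7, 6 and 8. The window on chromosome 3 at 4150001 to 4160000, which overlaps no annotated gene, stood at 60.1% and 51.6% in the iKO libraries, against 80.8% and 84.5% in the controls. Its 58 CpGs had 193 to 273 reads per library, and it differed by -26.8 points (limma-moderated fit, adjusted p = 5.93e-06). The window on chromosome 7 at 3160001 to 3170000, which overlaps AU018091, stood at 31.4% and 37.8% in iKO cells and 58.9% and 59.4% in controls, a difference of -24.6 points (limma-moderated adjusted p = 5.73e-05). Across 7 alternatives their adjusted p ranged from 6.96e-05 to 0.108 and from 0.00065 to 0.108, and only limma on logit levels did not call them.

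The next windows depended more on a single library. On chromosome 6 at 3090001 to 3100000, outside annotated genes, iKO replicate 2 stood at 20.6% but iKO replicate 1 at 49.0%, against 61.6% and 57.0% in the controls (-24.5 points, limma-moderated adjusted p = 0.0134, 0.00548 to 0.522 across the alternatives). On chromosome 6 at 3340001 to 3350000, overlapping Gm20559, the values were 61.3% and 38.3% against 74.3% and 71.8% (-23.3 points, limma-moderated adjusted p = 0.0019, 0.000753 to 0.293 across the alternatives). On chromosome 8 at 3570001 to 3580000 they were 34.5% and 23.0% against 50.0% and 53.7% (-23.1 points, limma-moderated adjusted p = 4.15e-05, 0.000116 to 0.108 across the alternatives). That window overlaps Rps23rg1, a retrogene copied from the ribosomal protein gene Rps23, and its depth was 1.10 times the library median. Whether reads of near-identical copies were split there was not tested. These 3 windows were not called without iKO replicate 2, nor by limma on logit levels.

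None of the 17 windows in which both iKO libraries lay above both controls was called (0 of them had an unadjusted p under 0.05 in the limma-moderated fit). The one with the lowest unadjusted p was on chromosome 2 at 3470001 to 3480000. It overlaps Suv39h2, which encodes a histone H3 lysine 9 methyltransferase of heterochromatin, and Dclre1c, which encodes the nuclease Artemis. It stood at 35.8% and 34.6% in the iKO libraries, against 29.1% and 30.7% in the controls over 149 CpGs (5.34 points, limma-moderated adjusted p = 0.153). The window on chromosome 11 at 4180001 to 4190000, over the splicing factor gene Sf3a1 and Tbc1d10a, stood at 45.6% and 45.0% against 36.9% and 41.5% (6.05 points, limma-moderated adjusted p = 0.167). Both were named after their values were seen. Of the 17 windows, 4 lay on chromosome 14, with 23 to 59 reads per library.

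Windows were then grouped by methylation level, CpG number and gene content. By mean level over the 4 libraries the drop was largest between 50% and 70%, where 853 windows had an iKO mean of 58.4% ± 1.60 (SD, n = 2) and a control mean of 67.3% ± 2.42 (SD, n = 2), a difference of -8.87 points against -9.29 in the rest of the autosomes. It was -7.67 points in 2122 windows between 70% and 80%, -5.49 points in 436 windows at 80% or more and -6.34 points in 279 windows between 20% and 50%. Because the levels themselves defined these classes, the differences are descriptions. Windows under 20% numbered 11 (0.297% of the region and 0.368% of the rest) and differed by -4.58 points, against -2.25 in the rest. By CpG number, the difference ranged from -7.92 points at 52 to 69 CpGs to -7.12 points at 95 CpGs or more. In that densest class the rest of the autosomes differed by -7.87 points, and in the sparsest class, with 10 to 37 CpGs, the values were -7.62 in the region and -7.61 in the rest. Compared within the 5 classes of CpG number, members minus rest differed between groups by 0.297 points, close to the unclassed value.

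Of the 3701 windows, 1774 overlapped a protein-coding gene and 1927 did not. Windows with a gene stood at 60.8% and 58.9% in the iKO libraries, against 66.0% and 69.2% in the controls, a difference of -7.73 points. Windows without one stood at 70.5% and 68.4% against 74.8% and 78.6%, a difference of -7.25 points. Windows without a gene exceeded those with a gene by 9.72 and 9.52 points in the iKO libraries and by 8.82 and 9.46 points in the controls. The groups did not overlap, and the difference of 0.484 points was larger than the pooled SD of 0.335 (exact permutation p = 0.333). Called windows made up 21.8% of those with a gene and 14.2% of those without, at medians of 70 and 50 CpGs per window, beside 17.3% of all windows. The same split was not made over the rest of the autosomes.

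Unusual read depth marked a small set of windows. Of the 3701 windows, 26 (0.703%) had a mean depth over 3 times the library median in at least 1 library, and 21 of these in all 4, against 0.0962% of the other autosomal windows. They lay on chromosomes 9 (4 windows), 10 (9), 11 (9), 16 (3) and 6 (1). On the other 14 chromosomes no window passed that depth. Relative depth averaged over the libraries was 2.98 and 2.96 in the lowest 2 of the 26, on chromosomes 11 and 10, and 2.83 and 2.53 in the highest 2 below the threshold, on chromosomes 17 and 10. With deep windows left out of both the region and the rest of the autosomes, the depth of the region over the rest went from 1.13 to 1.02 in both groups.

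The deep windows were lower in iKO cells too. Their pooled level was 66.7% and 64.8% in the iKO libraries, against 71.0% and 73.7% in the controls, a difference of -6.60 points. They exceeded the other windows of the region by 1.67 and 1.74 points in the iKO libraries and by 1.12 and 0.304 points in the controls. The groups did not overlap, and the difference of 0.992 points was larger than the pooled SD of 0.410 (exact permutation p = 0.333). Without control replicate 2 it was 0.584. Both iKO libraries lay below both controls in 24 of the 26 windows (92.3%, against 71.6% of all windows), at many more reads per window than elsewhere. Only the 1 window that passed 10 points was called (3.85%, against 17.3% of all windows), at a median difference of -6.27 points over the 26.

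On chromosome 9 the first 40 kb after the gap, 4 windows with 743 CpGs, were read 14.6 and 15.8 times as deeply as the library median in the iKO libraries and 15.87 and 16.02 times in the controls. The level was 74.3% and 71.99% in the iKO libraries, against 77.3% and 80.6% in the controls, a difference of -5.78 points on 41362 to 46508 reads per library. The first 10 kb were the deepest, at 20.6 times the median depth, and stood at 73.6% and 71.7% against 76.9% and 79.8%, a difference of -5.73 points. All 21 CpGs of the region with 200 reads or more in any library lay in the first 40 kb, with a maximum of 235 reads. The windows hold 1 annotated microRNA, Mir101c at chr9:3038680-3038698 on the minus strand. Its mature sequence is shown with the seed, bases 2 to 8, in capitals, to identify the only annotated microRNA in these windows.
mmu-miR-101c: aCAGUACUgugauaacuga
The window with Mir101c stood at 75.9% and 73.1% in the iKO libraries and at 77.8% and 81.7% in the controls, a difference of -5.22 points at 12.5 times the median depth. Without the 4 windows the difference on chromosome 9 was -8.03 points in place of -6.84, and the relative depth of the chromosome's windows 1.04 in place of 2.17.

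On chromosome 11 the 9 deep windows lay within the first 200 kb, and 7 adjacent ones overlap Sfi1, which encodes a centrin-binding protein of the centrosome, together with pseudogenes such as Fau-ps2 and Pisd-ps1. Relative depth in the 9 windows was 13.1 and 13.2 in the iKO libraries, against 13.7 and 14.2 in the controls, with no overlap between groups. Their level was 61.3% and 59.8% in the iKO libraries, against 67.1% and 69.8% in the controls, a difference of -7.92 points. The window at 3190001 to 3200000, at 20.96 times the median depth, was the deep window called lower. It stood at 60.6% and 59.1% in the iKO libraries, against 70.3% and 74.0% in the controls (-12.3 points) on 9196 to 11086 reads per library. The windows at 3170001 to 3180000 and 3180001 to 3190000, next to it and at 19.8 and 18.9 times the median depth, differed by -5.68 and -6.61 points, and that at 3160001 to 3170000, at 21.01 times the median depth, by -7.78 points.

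The 9 deep windows of chromosome 10 were scattered from 3110001 to 4920000, 3 of them within Esr1, and stood at 69.3% and 67.5% in the iKO libraries, against 72.3% and 75.2% in the controls, a difference of -5.36 points. In the window at 3110001 to 3120000, over 9230019H11Rik and Gm3318, iKO replicate 2 had 4131 reads and each other library 2439 to 2648, and the level was 73.0% and 72.5% in the iKO libraries against 74.7% and 75.9% in the controls. Without the deep windows the difference on chromosome 10 was -8.44 points in place of -7.67. On chromosome 16 the 3 deep windows stood at 57.9% and 55.2% against 57.3% and 62.8%, with overlapping groups (-3.52 points, pooled SD 3.07). The deep window of chromosome 6, which overlaps Gm2651, was the least methylated, at 32.1%, 20%, 34.9% and 29.5%, again with overlapping groups. Whether several genomic copies were merged in these windows was not tested.

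**Figure D4:**
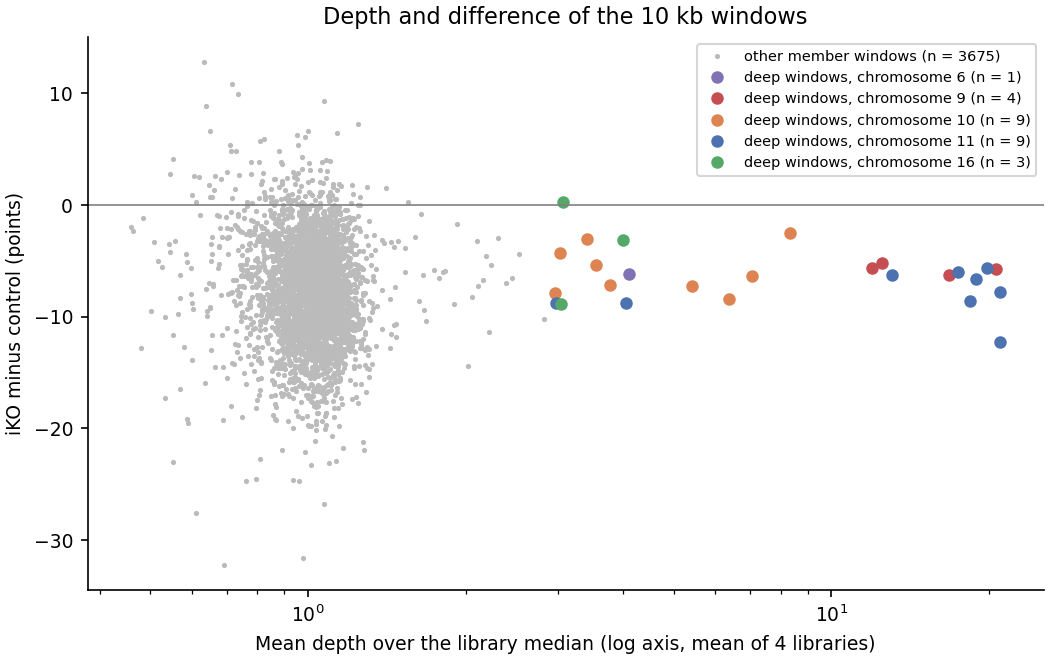
Difference between the group means in points against mean depth over the library median (log axis, mean of the 4 libraries) for each 10 kb window of the region. The 26 deep windows, coloured by chromosome, lie between -12.3 and 0.273 points, within the range of the 3675 others in grey.

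Genes of the region were examined at their starts, from 1000 bp before to 500 bp after the RefSeq start, where at least 5 CpGs had reads in all libraries. For 90 of 431 genes the promoter table held no entry and the end of the gene with more CpGs was used, which may not be the start of transcription. Of the 431 starts, 404 were tested. Their pooled level was 13.7% and 13.4% in the iKO libraries, against 16.3% and 16.4% in the controls, a difference of -2.78 points (pooled SD 0.133, exact permutation p = 0.333), and that of 18903 other autosomal starts -2.39 points. Of the 404 starts, 258 had a mean level under 20%, 50 lay between 20% and 50%, and 96 lay at 50% or more. The last class stood at 66.8% and 64.4% in the iKO libraries, against 73.2% and 77.4% in the controls, a difference of -9.72 points, and the first at 4.71% and 4.54% against 6.01% and 6.35%. The middle class differed by -6.09 points. The levels themselves defined these classes, so the differences are descriptions, and values by class are not given for other autosomal starts.

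No gene start of the region was called, by the same model and thresholds, against 0.0151% of 19902 starts tested. At an unadjusted p under 0.05 stood 48 of the 404, and edgeR and limma on logit levels also called 0, with 35 and 42. Over all 19902 starts these counts were 2344, 1855 and 1674. Both iKO libraries lay below both controls at 151 starts (37.4%, background 33.7%) and above both at 16, beside 1286 of the 18903 other autosomal starts. Leaving out a library gave calls: 5 without iKO replicate 1 (H60c, Cacng8 and Gstp2 lower, Peg10 and Sgce higher), 4 without control replicate 1 (H60c and Pcx lower, Peg10 and Sgce higher), 1 without control replicate 2 (Cacng8 lower) and 0 without iKO replicate 2. Over all 19902 starts the same fits called 0.533% and 0.216% when iKO replicate 1 or 2 was left out, and 0.910% and 0.372% for control replicate 1 or 2. These fits assume that the lone library of a group would vary as the other group's libraries do.

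The largest decreases among starts with at least 10 CpGs and groups that did not overlap were chosen after their values were seen. H60c stood at 46.7% and 36.4% in the iKO libraries and at 71.3% and 73.3% in the controls over 32 CpGs, a difference of -30.7 points (limma-moderated adjusted p = 0.122). The 250 bases printed above hold 4 of these 32 CpGs. Cacng8, which encodes an auxiliary subunit of AMPA glutamate receptors, stood at 45.8% and 28.8% against 71.7% and 64.1% (-30.6 points, limma-moderated adjusted p = 0.154). The glutathione S-transferase genes Gstp3 and Gstp2 on chromosome 19 stood at 34.4% and 26.2% against 52.2% and 64.2%, and at 33.7% and 9.76% against 40.2% and 51.5%. They are neighbouring members of 1 family, and whether reads were split between them was not tested. Unc93b1, a chaperone gene of Toll-like receptors, stood at 20.5% and 20% against 43.7% and 45.7%, and the cardiac troponin gene Tnni3 at 46.2% and 25.3% against 52.3% and 63.8%. The largest increase under the same 2 conditions was at Fcor, at 21.7% and 24.3% against 10.7% and 18.8%, an 8.28 point difference.

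Genes of 6 kinds in the region had been listed by role, 40 genes in all, and 39 were tested, since Akr1c6 had too few CpGs. None was called, and 4 had an unadjusted p under 0.05 in the limma-moderated fit. Both iKO libraries lay below both controls at 13 of the 39, close to the background of 33.7%, and above both at 2, and the median difference was -0.661 points, against -2.42 over the 404 starts of the region. The 4 cytokine genes of the IL-6 family had a median difference of -3.89 points. Il11 stood at 29.4% and 22.7% in the iKO libraries, against 38.9% and 43.6% in the controls over 10 CpGs (-15.2 points, limma-moderated adjusted p = 0.521). Lif stood at 62.7% and 53.7% against 46.8% and 68.6%, so the controls spanned both iKO values. Osm, at 53.4% and 39.05% against 51.2% and 44.9%, and Clcf1, at 8.51% and 17.3% against 20.8% and 17.1%, overlapped as well.

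The 7 listed genes of DNA methylation and chromatin had low levels at their starts. They ranged from 0% to 3.48%, with a median difference of 0.434 points. The list does not hold every such gene of the region. Outside it, the start of Suv39h2 had an iKO mean of 2.63% and a control mean of 3.76%, with overlapping groups. That of Kdm2a had means of 7.17% and 19.5%, and both iKO libraries lay below both controls. Dnmt3a, the de novo DNA methyltransferase gene, had 1 methylated library, iKO replicate 2 at 0.943%, and 0% in the other 3 over 49 CpGs. Kmt5b and Kmt5c, which encode the histone H4 lysine 20 methyltransferases of pericentromeric heterochromatin, stood at 3.27% and 2.56% against 3.48% and 1.28%, and at 0.962% and 1.54% against 0% and 1.03%. Morc2a had both iKO libraries above both controls, at 0.560% and 0.309% against 0% in both, on 224 to 357 reads. Arid1b, a subunit of BAF chromatin remodelling complexes, was at 0% in all 4 libraries. The starts of the acetyltransferase gene Crebbp and of Asxl2, a Polycomb-related gene, stayed under 1% in every library.

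The starts of Peg10 and Sgce, neighbouring imprinted genes expressed from the paternal allele, overlap each other, and both were placed by the CpG-denser end. Peg10 stood at 38.4% and 62.6% in iKO replicates 1 and 2, against 54.7% and 21.7% in control replicates 1 and 2. Sgce stood at 44.6%, 53.2%, 49.5% and 19.7% in the same order. Control replicate 2 was the lowest library at both, although it was the most methylated one over the region, and the groups overlapped (adjusted p = 0.523 and 0.339 in the limma-moderated fit). Neither gene was called in the fit without control replicate 2.

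Among 9 developmental regulators the groups did not overlap at 5, all lower in iKO cells, where 33.7% of all gene starts have that order. Penk, the proenkephalin gene, stood at 8.47% and 20.5% against 28.6% and 28.1%, and Bambi, a pseudoreceptor gene of the TGF-beta family, at 14.6% and 6.85% against 21.1% and 22.2%. Fzd1, a Wnt receptor gene, stood at 5.49% and 3.57% against 6.78% and 11.6%, Glis2 at 1.82% and 3.23% against 4.90% and 7.09%, and Tfap4 at 0.752% and 0.870% against 6.34% and 1.60%. Sox17, the endoderm regulator, overlapped at 13.9% and 9.79% against 11.9% and 17.3%. Esr1 overlapped over its whole start, at 50.8% and 61.0% against 50.5% and 62.7% over 28 CpGs, unlike the 7 CpGs printed above. Hnf4g, with 4.95% and 14.7% against 29.6% and 14.3%, had the lowest unadjusted p of the list (limma-moderated adjusted p = 0.388).

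Of 8 genes used by every cell, 4 had both iKO libraries below both controls, again beside a background of 33.7%. These were Tcea1 (0.469% and 1.56% against 3.25% and 4.81%), Elavl1 (0.800% and 1.01% against 3.76% and 2.53%), Drg1 (0% and 1.14% against 3.61% and 2.78%) and Ppp1ca (3.49% and 4.41% against 5.38% and 16.4%). Rps20, Mrpl15, Lypla1 and Ube2s overlapped, and no library exceeded 16.4% at any of the 8 starts. At the starts of the tissue-restricted genes single libraries ranged from 0% to 96.8%. Akr1c13, an aldo-keto reductase gene, stood at 55% and 52.2% against 82.8% and 83.3% over 6 CpGs and 20 to 29 reads (-29.5 points, limma-moderated adjusted p = 0.322). Retn, the resistin gene, stood at 51.2% and 52.6% against 70.9% and 59.6%. Rp1, a photoreceptor gene, stood at 74.2% and 51.7% against 86.5% and 78.6%, over 7 CpGs and 28 to 37 reads. Calcr, the calcitonin receptor gene, was above the controls in both iKO libraries, at 6.82% and 6.78% against 0% and 2.33%. Pomc, Ghr, Gria4, Nox3 and Akr1c18 overlapped.

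**Figure D5:**
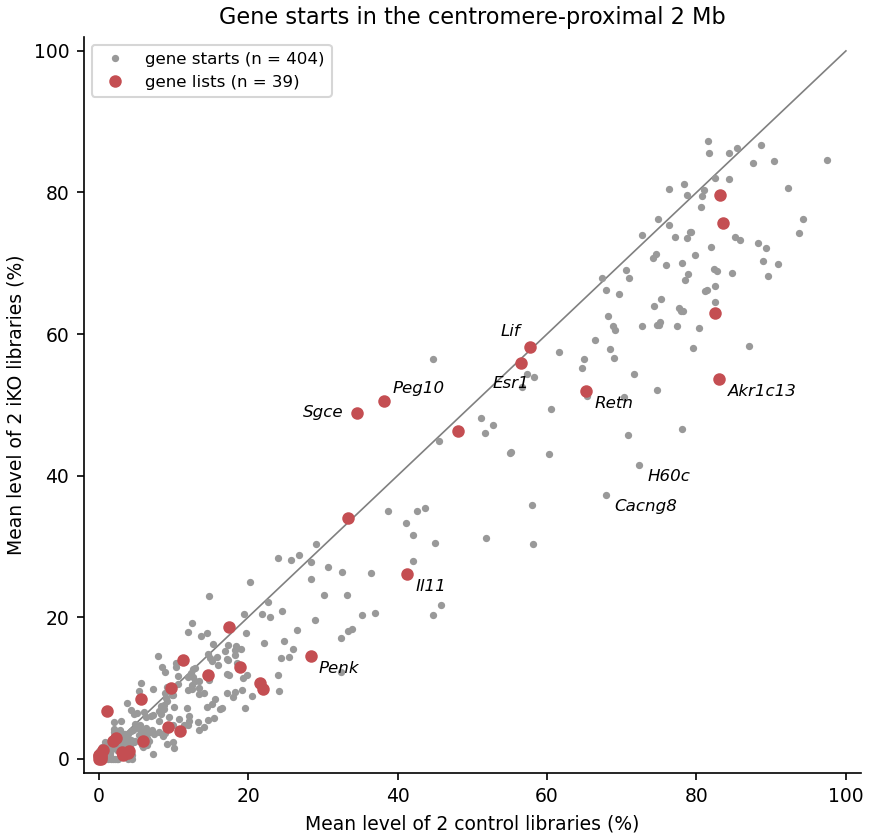
Mean level (%) of the 2 iKO libraries against that of the 2 controls for 404 gene starts of the region (grey) and 39 listed genes (red), with the line of equal levels. H60c and Cacng8 lie far below the line at -30.7 and -30.6 points, and Peg10 and Sgce above it at 12.3 and 14.3 points.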

How the data were processed

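Members, gene lists and tests were chosen with earlier results of these data known. The submitters' processing notes name BSMAP, Picard and mm10; versions, filters and duplicate handling are not given in the sources used here. The deposited tables hold read counts for each CpG per the file headers (C reads, C or T reads, and opposite-strand G and G or A reads), listed on the plus strand. The authors also give an expected count (C or T reads times the opposite strand's G share) and a methylation fraction; the fraction was not used. Tables were matched to samples by the group and replicate in their names.

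Counts were joined by position (Python 3.11.15, PyArrow 21.0.0, pandas 2.3.3, NumPy 2.4.6) and pooled per library and region. The pooled SD combines the 2 groups of 2 libraries. Exact permutation tests went through every arrangement of the library labels, in Python with NumPy. Windows with at least 10 CpGs and gene starts with at least 5 were fitted over autosomes and X with a quasi-binomial logistic model (group only, R 4.3.3), its Pearson dispersion moderated by limma 3.58.1 with a floor of 1, and was checked on simulated data. edgeR 4.0.16 on methylated and unmethylated counts, and limma with 0.5 reads added before the logit, were alternatives. No molecular identifiers are named and CpGs on 1 fragment are not independent, so p-values of single windows may be too small. Because the expected count need not be whole, it was rounded for the window model.

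Gene positions, starts, promoters and the microRNA came from RefSeq tables of GRCm38.p6, which do not separate exons from introns; of 21627 protein-coding genes 17273 had a start there and 4354 were placed by their CpG-denser end. Named windows are the 5 largest decreases and increases among called windows with at least 30 CpGs and groups that do not overlap, the 5 deepest windows, and the 3 chromosomes at each extreme (no window was called higher, so no increase was named by this rule); others were chosen after their values were seen. Other alternatives were the read and CpG minimum, the corrected depth, deep CpGs or windows left out, unweighted means, thinned reads, other extents, and each library left out.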

Additional observations from a re-analysis of the deposited data

How the results depend on the processing

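The lower level in iKO cells kept its direction in all 15 alternatives, from -9.22 to -5.75 points. Both ends of this range came from leaving out a control library. Leaving out a library could not reverse the direction, since both iKO libraries lay below both controls, and the replicate block leaves the difference unchanged. The other settings ranged from -7.77 points (mean over CpGs) to -6.59 points (5 reads per CpG). Leaving out single libraries gave these ranges: -0.0569 to 0.243 points for centromere-proximal minus telomere-proximal, -0.00473 to 0.00241 for the difference in relative depth (main value -0.00116), 9 to 17 chromosomes with a smaller drop than their remainder, 47 to 1072 windows called and 0 to 5 gene starts called. Requiring 5 reads per CpG reversed members minus rest (-1.41 points), members minus telomere-proximal (-5.48) and the first 200 kb minus the next 1.8 Mb (-0.730). It left 2 called windows among 73 tested in place of 3701 (2.74%, beside 3.78% of the 1880 windows left in all). The difference between groups in the excess of the first 200 kb (main value 0.733 points) moved to 0.533 points with corrected depth, 0.516 without CpGs over 5 times the median depth, 0.478 without deep windows, 1.32 for the first 100 kb and 0.367 for the first 500 kb; the cause was not tested. limma on logit levels called 0 windows. With the replicate number as a block 284 windows (7.67%, beside 8.24% of all windows) and 0 gene starts were called, and the pairing of iKO replicate 1 with control replicate 2, added after seeing the data, gave 912 (24.64%, beside 23.88%) and 0. Libraries of the same number did not deviate together (r = -0.029 over the windows of the region), so the numbers are not taken to pair them; the block leaves the pooled differences as they are (-7.49 points, SD of the 2 pair differences 3.88). Single CpGs at about 4 reads could not be compared, and with 2 libraries per group the exact permutation test cannot give less than 0.333.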

Other observations

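On chromosome X, which is outside the autosomal comparison, the 104 windows between the gap and 5 Mb stood at 76.4% and 74.8% in iKO replicates 1 and 2 and at 78.6% and 82.5% in control replicates 1 and 2, which is -4.92 points with a pooled SD of 2.09, on 4865 to 8117 reads per library. The rest of X stood at 68.1% and 66.0% against 72.4% and 76.7%, a difference of -7.55 points. The next autosomal stretch away from the gap, from 5 to 7 Mb, stood at 66.0% and 64.0% against 70.8% and 74.2%, a difference of -7.52 points, close to the -7.49 points of the first 2 Mb.

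The opposite strand of a CpG should read G, and a lower share marks positions where the reads differ from the reference. The share was 96.6% to 96.7% in the deep windows of the region in all 4 libraries, 99.8% in its other windows and 99.8% in the rest of the autosomes. Deep windows elsewhere on the autosomes, 226 in number, were less methylated than those next to the centromeres, at 52.5% and 49.3% in the iKO libraries and 55.1% in both controls.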
